A study of Mus musculus with 3 samples.

Results

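In all, 10 genes of the stromal extracellular matrix and its elastic fibres were followed across 3 culture media: Lox, Fbln5, Eln, Fbn1, Fn1, Tnc, Lum, Dcn, Postn and Col1a1. Each was represented by the probe set that the platform annotation assigns to that symbol and to no other. On this basis 9 of the 10 were measured, among 19938 genes in all, each by 1 probe set, and Fbn1 was not analysed here. The tissue was the kidney of C57BL/6 mouse embryos at embryonic day 11.5, held on a Transwell filter for 48 h. The media were DMEM holding 10% fetal bovine serum (called serum below), DMEM alone (serum-free), and DMEM alone plus retinoic acid, the active metabolite of vitamin A, at a dose that the labels do not state. All groups shared strain, stage, tissue and culture time, and each is represented by 1 array (Affymetrix Mouse Gene 1.0 ST), which leaves no replicate and no test. The labels do not state how many kidneys or embryos went into an array. The series title states the question as which genes respond to retinoic acid in the developing kidney.

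Stromal cells secrete a matrix in which collagen fibrils carry tension and elastic fibres give recoil. An elastic fibre is a core of elastin laid on fibrillin microfibrils, with fibulin-5 helping to place the elastin and lysyl oxidase cross-linking both elastin and collagen. Small leucine-rich proteoglycans such as decorin and lumican bind collagen fibrils and regulate their width, and matricellular proteins such as tenascin-C and periostin modify cell adhesion rather than bear load. In the embryonic kidney this matrix surrounds the branching ureteric bud and the nephron progenitors, and the stroma beside it is a site of retinoid signalling.

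Retinoic acid added to serum-free medium went with lower Lum, Postn and Tnc, which encode a proteoglycan and 2 matricellular proteins, and none of the 9 genes was higher by 2-fold, where 0.613% of all genes at or above a floor on the level were lower by that much and 1.05% higher. Leaving out serum went with lower Lox and Fbln5, the cross-linking enzyme and the elastin-placing protein of the elastic fibre, against 0.699% of all such genes. Fn1, Col1a1 and Eln, which encode fibronectin, a chain of type I collagen and elastin, differed by at most 0.15 on the log2 scale between any pair of media. A gene was called higher or lower where it differed by at least 2-fold, that is by 1 on the log2 scale, and the larger of its 2 values reached that floor, 7.12, the median of all gene-level values. All 9 genes met the floor in every comparison, and only Lum, on the retinoic acid array, had a value under it.

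Some features of the whole set bear on these values. Median intensity over all probe sets was between 81.5 and 85.5 on the 3 arrays. Values exactly equal on both arrays made up 35.4% of genes at or above the floor for retinoic acid against serum-free and 29.5% for serum-free against serum, so a difference of exactly 0 is no measure of equal expression. Where a gene had several probe sets, their log2 differences disagreed by less than 0.28 in 95% of pairs for both of these comparisons, and by less than 0.33 for retinoic acid against serum. That disagreement is technical and says nothing about the spread between explants. Sex-linked transcripts also differed, with Xist at 10.84 with serum, 11.48 without it and 9.79 under retinoic acid, and the Y-linked Eif2s3y at 8.38, 7.46 and 8.64 in that order. The part of embryo sex in the differences below was not tested.

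Markers of several cell types were set against the floor. It is the median of all gene-level values, which many genes of any tissue pass, so passing it is no check of kidney origin. All 10 renal stroma markers, among them Foxd1, Pdgfra and Tcf21, stood at or above the floor on every array. So did 7 of 8 nephron progenitor markers, all 7 measured ureteric bud markers, all 8 endothelial markers and 6 of 10 macrophage markers. Smooth muscle was represented by 9 genes, of which Myh11, Myocd and Lmod1, 3 markers of mature contractile cells or their regulator, were below the floor in all media. Of 6 markers of mesothelium and gonad, Msln, Lhx9, Nr5a1 and Amh were below it as well. In bulk tissue such as this, fewer cells of a type and less RNA per cell cannot be told apart.

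**Figure D1:**
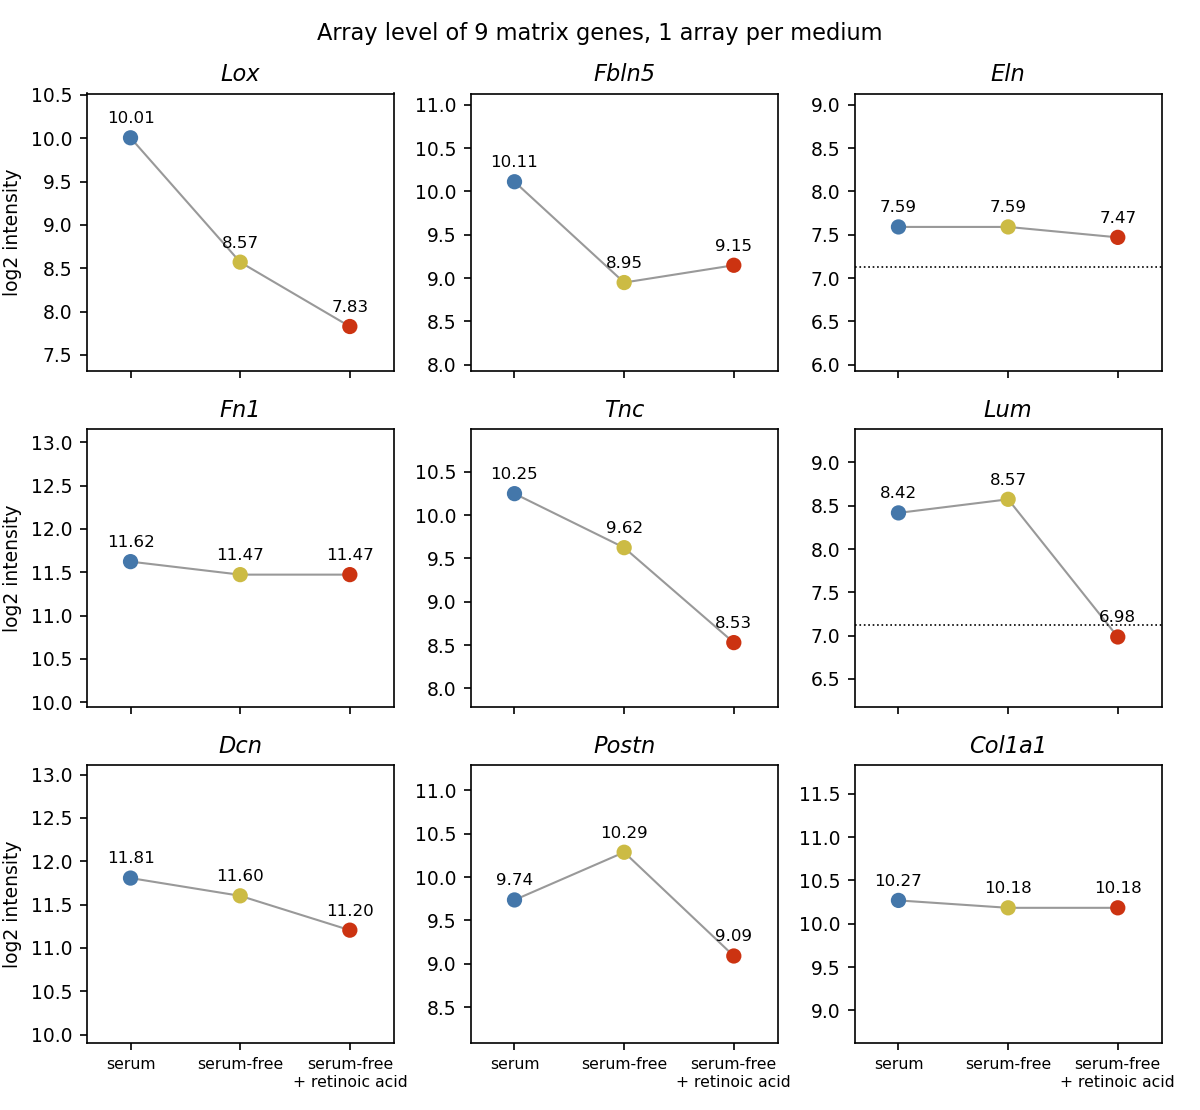
Log2 array intensity of the 9 measured genes (vertical axis, the same span in each panel) in serum, serum-free medium and serum-free medium with retinoic acid, with 1 array per point and no error bars. The dotted line is the floor of 7.12. Lox and Fbln5 are highest in serum, Tnc steps down from serum to serum-free to retinoic acid, Lum and Postn are lowest with retinoic acid, and Fn1, Col1a1 and Eln are nearly level.

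Lox encodes lysyl oxidase, the copper enzyme that oxidises lysines of collagen and elastin so that they cross-link. Its level was 10.01 with serum, 8.57 without it and 7.83 under retinoic acid. It was thus highest in serum and lowest with retinoic acid, and both steps lay outside the disagreement between probe sets. Without serum it was 2.70-fold lower, a difference of -1.44 that ranked 29 from the lowest of 10156 genes. The further difference with retinoic acid was -0.74, which is short of 2-fold and ranked 134 of 10111. From serum to retinoic acid the whole distance was -2.18, or 4.52-fold, ranked 9 of 10169.

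Fbln5 encodes fibulin-5, a secreted protein that binds elastin, cell-surface integrins and lysyl oxidase family enzymes. Its level was 10.11 with serum, 8.95 without it and 9.15 under retinoic acid. Like Lox it was highest in serum, and unlike Lox it was not lower with retinoic acid than in serum-free medium. Leaving out serum gave a 2.24-fold lower value (-1.16, ranked 56 of 10156). Retinoic acid gave a difference of 0.20, within the disagreement between probe sets. Against serum the retinoic acid value differed by -0.96, just short of 2-fold, and it reached -1.02 when each array was centred on its median.

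Eln, the gene of elastin itself, stood at 7.59 with serum, 7.59 without it and 7.47 under retinoic acid. These values lie close above the floor and differ by 0.12 at most. The serum and serum-free values were exactly equal, a tie of the kind described above. No difference of the size seen for Lox and Fbln5 was measured. A tie and a level this near the floor do not show that expression was equal.

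Fn1 encodes fibronectin, the adhesive glycoprotein on which other matrix proteins assemble. Its level was 11.62 in serum and 11.47 in both other media. Col1a1 encodes the main chain of type I collagen and stood at 10.27 in serum and 10.18 in both other media. Both genes were slightly higher in serum, by 0.15 and 0.09, which is within the disagreement between probe sets. The serum-free and retinoic acid values of each gene were exactly equal.

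Dcn encodes decorin, a proteoglycan that coats collagen fibrils and binds transforming growth factor beta. It stood at 11.81 with serum, 11.60 without it and 11.20 under retinoic acid. The order was that of Lox, with smaller steps. The difference without serum was -0.20, within the disagreement between probe sets, and that with retinoic acid was -0.40, or 1.32-fold, outside it. From serum to retinoic acid it was -0.60, and none of these reached 2-fold.

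Lum encodes lumican, the proteoglycan whose gene lies beside Dcn and whose product binds the same fibrils. It stood at 8.42 with serum, 8.57 without it and 6.98 under retinoic acid, the last under the floor. Serum and serum-free values differed by 0.16, within the disagreement between probe sets, and the retinoic acid array stood apart from both. Lum was 3.01-fold lower with retinoic acid than without (-1.59), which ranked 14 from the lowest of 10111 genes. Against serum the difference was -1.43, or 2.70-fold, ranked 34 of 10169. Because the lower value is under the floor, the size of both differences is uncertain, and the values became -1.38 and -1.24 with 32 added to all intensities.

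Tnc encodes tenascin-C, a large multi-armed glycoprotein of embryonic and healing tissue that loosens adhesion to fibronectin. It stood at 10.25 with serum, 9.62 without it and 8.53 under retinoic acid. The order was again serum, serum-free, retinoic acid. Retinoic acid went with a 2.14-fold lower value (-1.10, ranked 45 of 10111), and the absence of serum with a difference of -0.62, short of 2-fold. From serum to retinoic acid Tnc differed by -1.72, or 3.29-fold, ranked 18 of 10169.

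Postn encodes periostin, which binds collagen, fibronectin and tenascin-C and helps to activate lysyl oxidase. It stood at 9.74 with serum, 10.29 without it and 9.09 under retinoic acid. Its highest value was thus in serum-free medium, and both steps lay outside the disagreement between probe sets. Retinoic acid went with a 2.29-fold lower value (-1.20, ranked 37 of 10111). Without serum it was 1.46-fold higher (0.55), ranked 214 from the highest of 10156 genes and short of 2-fold, and against serum the retinoic acid value differed by -0.65.

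Promoter sequence is shown for Tnc and Postn, which were both lower with retinoic acid, and for Fbln5, which was lower without serum. RefSeq windows on GRCm38.p6, running from 250 bases before to 50 bases after a transcription start, were found for these 3 genes, with 2 starts each. Lox, Eln, Fn1, Lum, Dcn and Col1a1 had no entry in the table. The 250 bases before the first start of each gene follow, 5′ to 3′ on the gene's strand, with matches to the TATA, CArG, TEAD, AP-1 and nuclear receptor motifs (spelled out after the sequences) on either strand in capitals. The Tnc stretch is chr4:64047016-64047265 (minus strand), the Postn stretch chr3:54359017-54359266 (plus strand) and the Fbln5 stretch chr12:101819120-101819369 (minus strand).
Tnc: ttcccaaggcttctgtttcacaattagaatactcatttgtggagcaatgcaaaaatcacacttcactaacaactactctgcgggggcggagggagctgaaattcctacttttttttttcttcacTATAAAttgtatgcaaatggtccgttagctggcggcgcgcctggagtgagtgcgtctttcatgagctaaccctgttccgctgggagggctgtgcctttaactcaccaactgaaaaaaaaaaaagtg
Postn: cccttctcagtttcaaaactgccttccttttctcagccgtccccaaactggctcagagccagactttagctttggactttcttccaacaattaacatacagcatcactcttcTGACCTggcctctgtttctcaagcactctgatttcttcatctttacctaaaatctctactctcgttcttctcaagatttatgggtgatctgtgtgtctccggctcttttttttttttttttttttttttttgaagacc
Fbln5: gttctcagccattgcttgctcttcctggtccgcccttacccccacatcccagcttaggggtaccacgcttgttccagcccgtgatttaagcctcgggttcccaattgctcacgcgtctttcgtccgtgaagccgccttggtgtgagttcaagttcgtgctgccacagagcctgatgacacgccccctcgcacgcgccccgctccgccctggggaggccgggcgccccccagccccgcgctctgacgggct
The second Postn start has a TATAAA at -26 to -21, shown in capitals in the 30 bases at chr3:54361069-54361098 (plus strand).
Postn, second start: agcccagagctaTATAAActcagctctcca

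The motifs are the TATA element (TATAAA), the element bound by serum response factor (CArG box), the core letters of SMAD (CAGAC), TEAD (GGAATG) and AP-1 (TGANTCA) elements, the half-site of retinoic acid and other nuclear receptors (AGGTCA) and the E-box (CANNTG). Each was searched on both strands of all 32851 windows of 300 bases. Tnc held TATAAA at -126 to -121 from its first start, a match that lies in both of its overlapping windows, and TATAAA was in 13.6% of all windows. AGGTCA lay on the opposite strand at -138 to -133 from the first Postn start, where it reads TGACCT, and at -1 to 5 of the second Fbln5 start. It was in neither Tnc window and in 16.3% of all windows. The CArG box, GGAATG and TGANTCA, present in 1.63%, 14.7% and 7.81% of all windows, were in none of these 6. CAGAC was in 5 of the 6 against 49.6% of all windows, and CANNTG in 3 of the 6 against 72.3%. The overlapping Tnc windows share matches to both of these motifs, so the 6 windows are not separate stretches. CAGAC and CANNTG are left in lower case, and no match in these windows overlapped a match to another motif. A match is a run of letters and no measured site, and the lack of one says nothing about the factor.

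Set over all 9 genes, retinoic acid against serum-free medium gave 3 lower (Lum, Postn, Tnc) and 0 higher. Over all genes at or above the floor, 10111 in number, the same rule gave 0.613% and 1.05%. The median difference of the 9 was -0.40, against a median of 0 over all genes. Differences below 0 were found for 6 of them, an exact 0 for Fn1 and Col1a1, and one above 0 for Fbln5, while 35.1% of all genes at or above the floor lay below 0. The genes nearest to the 2-fold line were Tnc at -1.10 inside it and Lox at -0.74 outside it.

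Serum-free medium against serum gave 2 lower genes (Lox, Fbln5) and 0 higher, with backgrounds of 0.699% lower and 0.876% higher among 10156 genes. The median of the 9 was -0.15, against 0 over all genes. Besides the 2 called genes, Tnc, Dcn, Fn1 and Col1a1 had differences below 0, Lum and Postn above 0, and Eln exactly 0. Of all genes at or above the floor 51.0% also lay below 0 here.

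Retinoic acid against serum, a comparison that is the sum of the other 2 steps and shares their arrays, gave 3 lower genes (Lox, Tnc, Lum) and 0 higher. The backgrounds were 0.816% lower and 1.04% higher among 10169 genes. All 9 differences lay below 0, from -0.09 in Col1a1 to -2.18 in Lox, with a median of -0.65. Of all genes at or above the floor 51.3% lay below 0. The 9 also lay below 0 after cyclic loess scaling. Centring each array on its median moves every gene by the same -0.05 here, so it could not have changed this.

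**Figure D2:**
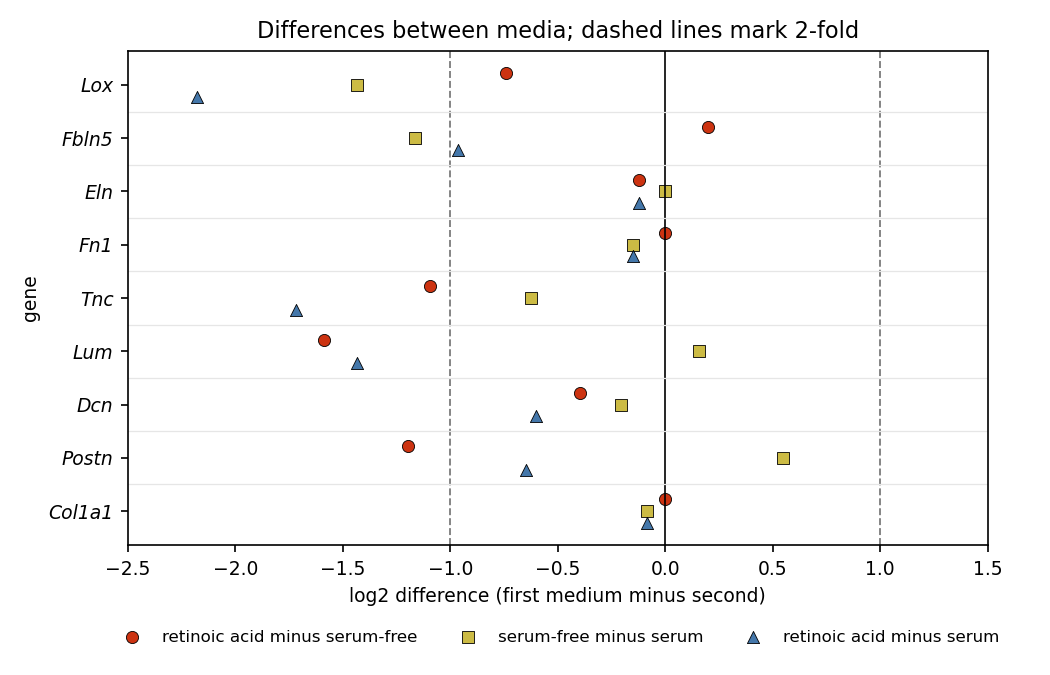
Log2 difference between media (horizontal axis, first medium minus second) for each of the 9 genes (vertical axis), with 1 symbol per comparison and no error bars since each medium has 1 array. Dashed lines mark 2-fold. In retinoic acid minus serum all 9 triangles lie left of 0, while Lox and Fbln5 pass the line in serum-free minus serum, and Lum, Postn and Tnc in retinoic acid minus serum-free.

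The rest of the matrix was described with 10 lists that hold 129 further genes, of which 122 were measured. With retinoic acid against serum-free medium 95 of these reached the floor, of which 2 were lower by 2-fold (Bgn, Fbln2) and 2 higher (Tgfb3, Tgm2), where the background was 0.613% lower and 1.05% higher. Without serum 4 of 94 were lower (Ccn1, Ccn2, Ogn, Thbs2) and 0 higher, where it was 0.699% and 0.876%. For retinoic acid against serum 9 of 96 were lower and 0 higher, where it was 0.816% and 1.04%. Over all 122 the median difference was 0, -0.04 and 0 in that order. With retinoic acid against serum-free medium Bgn (-1.01) and Fbln2 (-1.06) lay close to the 2-fold line, and Tgm2 (1.12) and Tgfb3 (1.40) further from it. Calls of single genes outside the 9 were not followed under other settings. The lists were chosen with earlier results of these data known, so their counts are given as description only.

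Among the genes of elastic fibres, 17 of 19 were measured, Lox, Fbln5 and Eln included, and the list's median was 0 with retinoic acid, -0.16 without serum and 0 for retinoic acid against serum. Mfap2, which encodes a microfibril-associated glycoprotein, stood at 12.25 in all 3 media. Fbn2, the gene of a second fibrillin, stood between 9.89 and 9.93. The equal values of Mfap2 are a tie of the kind described above. Mfap5, another microfibril-associated gene, was under the floor on every array, at 6.06, 5.73 and 5.46 in the order serum, serum-free, retinoic acid. Fbln2, another fibulin gene, was 8.28 with serum, 8.97 without it and 7.91 under retinoic acid, ordered like Postn. Its difference with retinoic acid, -1.06, was just past 2-fold. Emilin1, which encodes a glycoprotein of the elastin and microfibril interface, was highest with retinoic acid at 8.91 against 8.16 without it, short of 2-fold.

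Of 18 genes for collagen cross-linking and processing, 16 were measured. Loxl1, the relative of Lox that acts on elastin, stood at 9.37 with serum, 8.91 without it and 8.65 under retinoic acid. That is the order of Lox with smaller steps, of -0.47 and -0.25, the second within the disagreement between probe sets. Loxl3 differed by 0.08 at most and Loxl4 was below the floor. P4ha3, which encodes a subunit of the collagen prolyl hydroxylase, was lower with retinoic acid than in serum (-1.13), its levels being 8.36, 8.08 and 7.23 in the order serum, serum-free, retinoic acid. Tgm2, which encodes a transglutaminase that cross-links proteins by another chemistry, was higher with retinoic acid by 1.12, at 9.06 against 7.93.

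All 11 fibrillar collagen genes were measured, none was called in any comparison, and no difference among them exceeded 0.10 in size. Much of this is ties and low values: 5 of the 11 (Col5a1, Col5a3, Col11a1, Col11a2 and Col27a1) had identical values on all 3 arrays, and 5 were below the floor throughout. Over all genes at or above the floor 0.613% to 1.05% were called per direction. A list this short can be without a call at such shares. Col1a2, whose product joins that of Col1a1 in type I collagen, stood at 9.46, 9.36 and 9.38 in the order serum, serum-free, retinoic acid. Col3a1 stood between 8.69 and 8.72. Of 8 other interstitial collagen genes, Col8a1 was lower with retinoic acid than in serum (-1.52). Its serum value of 7.25 was close above the floor, and its serum-free (6.64) and retinoic acid (5.73) values were under it. Col12a1 was at 9.08 in serum against 8.34 without it, short of 2-fold.

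The small leucine-rich proteoglycan genes did not share 1 order. Of 11 genes, 5 reached the floor in 1 medium or more, and of these Lum (6.98) and Fmod (6.91) were under it with retinoic acid. Bgn, which encodes biglycan, the close relative of decorin, was 11.36 with serum, 11.28 without it and 10.27 under retinoic acid. Its difference with retinoic acid, -1.01, was only just past 2-fold. Ogn, which encodes osteoglycin, was 8.69, 7.52 and 7.66 in the same order, lower without serum (-1.17). Bgn was thus lowest with retinoic acid, as Dcn was, and Ogn highest in serum, as Fbln5 was. Aspn, which encodes asporin, was at 6.09, 7.09 and 5.77, under the floor in all media and highest in serum-free medium as Postn was. Fmod, which encodes fibromodulin, stood at 7.22, 7.49 and 6.91, lowest with retinoic acid.

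Matricellular genes, 14 of which were measured with Tnc and Postn among them, had medians of -0.36 with retinoic acid, -0.15 without serum and -0.63 between retinoic acid and serum. The medians of the 11 proteoglycan genes were -0.15, 0 and -0.32 in the same order, with 6 of the 11 under the floor on every array. Thbs2, which encodes a thrombospondin, was 8.54 with serum, 7.48 without it and 6.89 under retinoic acid. Ccn1 and Ccn2, which encode secreted proteins induced by YAP and serum response factor, were lower without serum, with differences of -1.24 and -2.05. Thbs1, another thrombospondin gene, was lower with retinoic acid than in serum (-1.15). These 4 genes and Tnc shared the order serum, serum-free, retinoic acid. Sparc, an abundant collagen-binding matricellular gene, stood between 12.74 and 12.87, and Sparcl1 ran the other way, at 10.48, 10.96 and 11.24.

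Genes of the transforming growth factor beta pathway, which drives matrix production in many tissues, had a median of 0.09 with retinoic acid and -0.04 without serum over 14 measured genes. Tgfb3, which encodes a ligand, was 10.22 with serum, 9.54 without it and 10.94 under retinoic acid, higher with retinoic acid by 1.40. Tgfbi, whose name comes from its induction by the pathway, stood between 11.82 and 12.06. Apart from Tgfb3 and Ccn2, which belongs to this list too, none of the 14 was called, where the backgrounds were 0.613% to 1.05% per direction.

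**Figure D3:**
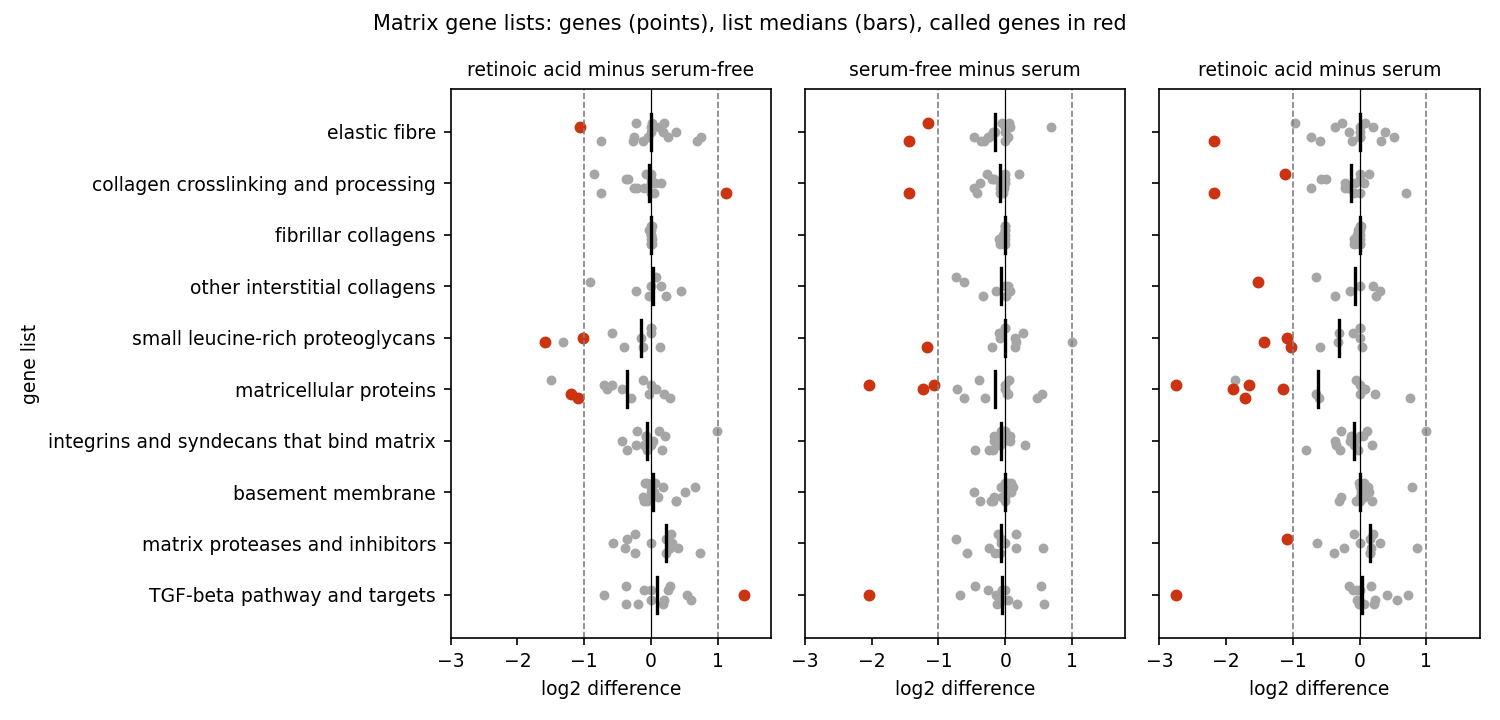
Log2 differences of the measured genes of 10 matrix lists (vertical axis) in the 3 comparisons (panels), with 1 point per gene, a black bar at each list's median and dashed lines at 2-fold. Red points are genes called by the size rule with the floor. Fibrillar collagens lie within 0.10 of 0 in each panel, and 5 matricellular genes are red left of -1 in retinoic acid minus serum. Lists overlap and include the 9 genes described above.

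For the 5 genes whose levels spanned at least 1 log2 unit, the 3 genes with the nearest pattern were found by the Euclidean distance between log2 values centred per gene over the 3 arrays, among 10005 genes. With 3 values per gene the match is a loose one and is given as a description. Nearest to Lox were Kcne3, a potassium channel subunit gene (distance 0.16), Ccn1 (0.21) and Myl9, a myosin light chain gene of contractile cells (0.23). Nearest to Fbln5 were Insig1, a regulator of sterol synthesis (0.02), Ogn (0.05) and Sim1 (0.08). Kcne3 rests in part on low values, its levels without serum (6.91) and with retinoic acid (5.97) being under the floor. For Tnc they were Col8a1 (0.16), the small heat shock gene Cryab (0.19) and Prss35 (0.23). For Lum they were the claudin gene Cldn1 (0.04), Emp1 (0.08) and the homeobox gene Meox2 (0.14). For Postn they were the sialyltransferase gene St6galnac5 (0.03), the monoamine transporter gene Slc18a1 (0.09) and Pamr1 (0.12). All 3 genes nearest to Tnc and all 3 nearest to Postn were under the floor with retinoic acid, as was Cldn1 (6.52). These matches too rest in part on low values.

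**Figure D4:**
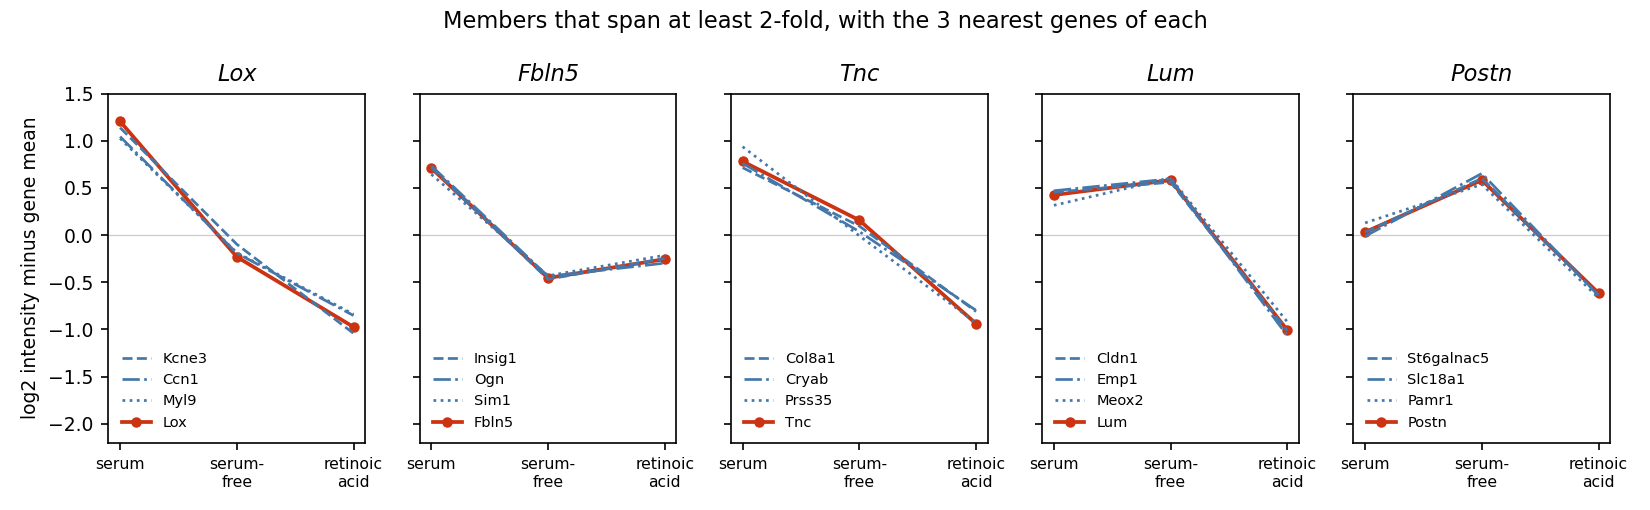
Log2 intensity minus each gene's own mean (vertical axis) over the 3 media for the 5 genes that span at least 1 log2 unit (red, 1 per panel) and the 3 genes nearest to each (blue). Each point is 1 array. The panels show the separate orders: Lox and Tnc step down at both changes of medium, Fbln5 only where serum is left out, Lum only where retinoic acid is added, and Postn is highest in serum-free medium.

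Markers of other cell types moved between the same arrays. The 9 smooth muscle markers had a summed intensity of 9192 with serum, 4077 without it and 2387 under retinoic acid, the order of Lox, Tnc and Dcn. Of the 9, 4 were called lower without serum and 2 with retinoic acid, where the backgrounds were 0.699% and 0.613%. Cnn1 and Actg2 also differed by -1.02 and -1.40 with retinoic acid, but with both values under the floor. The brightest of the 9, Acta2, stood at 12.42, 11.11 and 9.72, and without it the sums were 3723, 1867 and 1544. Only 4 of the 9 followed that order gene by gene, and Des, at 9.29, 9.33 and 9.29, and Smtn, at 9.23, 9.03 and 9.04, did not. Their part in the values of Lox, Tnc and Dcn was not tested. The 8 nephron progenitor markers summed to 8895, 10497 and 6957, highest in serum-free medium and lowest with retinoic acid, as Postn was. Of the 8, 5 had that order, while Meox1 (8.69, 8.19 and 10.00) and Tmem100 (lower without serum by a difference of -1.10) were lowest in serum-free medium. Their part in the values of Lum and Postn was not tested either. The 7 measured ureteric bud markers summed to 8424, 5174 and 8264, lowest in serum-free medium as Fbln5 was. Much of that is Calb1, and without it the sums were 5167, 4326 and 4419. Without serum 6 of the 7 had differences below 0, and with retinoic acid 5 had differences above 0. The part of ureteric bud cells in the values of Lox and Fbln5 was not tested.

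The 10 renal stroma markers summed to 14727 with serum, 14331 without it and 16073 under retinoic acid. None was lower by 2-fold in any comparison, where the backgrounds were 0.613% to 0.816%. Tbx18, a transcription factor gene of the ureter mesenchyme, was higher with retinoic acid by 1.22, where the background was 1.05%. Much of the change in the sum is Meis2, the brightest, and without it the sums were 10453, 10328 and 10833. The list's median difference with retinoic acid was 0.08, and Pdgfrb, at 11.06 without and 10.38 with retinoic acid, Smoc2 (8.98 and 8.67) and Ntn1 (8.14 and 8.04) were lower with it, short of 2-fold. The part of the stromal cells in the values of the 9 genes was not tested. The 10 macrophage markers summed to 2489, 7716 and 5608, with 9 of them higher by 2-fold without serum, where the background was 0.876%. The 8 endothelial markers summed to 6993, 10060 and 8587. Both lists were lowest in serum, where Lox and Fbln5 were highest, and their part in that difference was not tested.

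**Figure D5:**
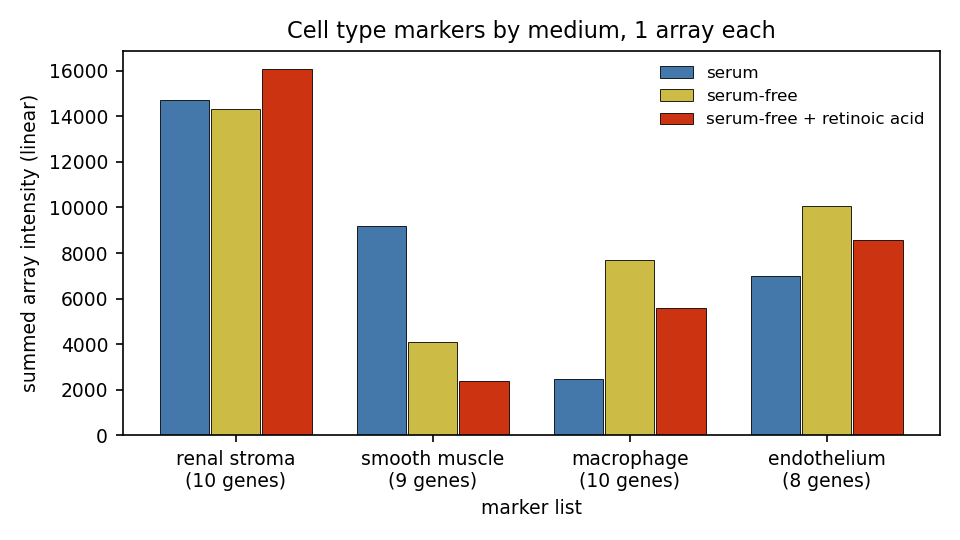
Summed linear array intensity (vertical axis, from 0) of 4 cell type marker lists in the 3 media, with 1 array per bar and no error bars. Smooth muscle markers go from 9192 in serum to 2387 with retinoic acid, while renal stroma markers stay between 14331 and 16073.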

How the data were processed

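Total RNA was labelled and hybridised to 1 array per medium, per the labels' protocols. The deposited intensity values are linear, run from 3.84 to 17250, and were made by the authors with Affymetrix Expression Console 1.1 and RMA, per the submitters' processing notes, which name no settings. Log2 was taken with no constant. Of 35556 probe sets, the 21789 with 1 gene symbol in the platform annotation were used (21698 matched RefSeq by gene identifier, 0 renamed), with the highest-mean probe set for the 999 genes that had several. The number of arrays limits the precision, and no p-value was computed. Alternatives were cyclic loess scaling (limma 3.58.1), median centring, 32 added to intensities, the mean of probe sets, other floors and a 1.5-fold rule. Named genes were the members, the called or else the 2 largest genes at or above the floor of each list, and nearest patterns without gene models. The genes named as level or short of 2-fold, Aspn, Fmod, the sex-linked genes and single cell type markers were added after their values were seen. Members and lists were chosen with earlier results of these data known. The calling step was tested on simulated data.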

Additional observations from a re-analysis of the deposited data

How the results depend on the processing

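With 1 array per medium no replicate could be left out. No paired analysis was possible because each group has 1 sample. Alternatives for the single members were cyclic loess, median centring, 32 added to the intensities and the mean of probe sets. None of the 108 differences moved by as much as the disagreement between probe sets. The mean of probe sets could move none, since each member has 1 probe set, and median centring moves all genes alike. Only 1 call changed: Fbln5 in retinoic acid against serum was lower by 2-fold under median centring (-1.02). The median of the 9 genes ranged over these settings from -0.38 to -0.40 for retinoic acid against serum-free, from -0.11 to -0.22 for serum-free against serum and from -0.61 to -0.70 for retinoic acid against serum. At 1.5-fold, 4 members were lower in retinoic acid against serum-free, 3 in serum-free against serum and 6 in retinoic acid against serum. In each comparison 0 were higher. Over all genes at or above the floor, 244 of 10111 were higher and 196 lower at 1.5-fold for retinoic acid against serum-free. The counts were 204 and 210 of 10156 for serum-free against serum, and 250 and 289 of 10169 for retinoic acid against serum. With the 2-fold rule and the floor at the 75th percentile of gene-level values (8.91), the counts over all genes were 55 and 26, 40 and 32, and 46 and 40. That floor takes Lum out of the calls, leaving 2 members lower with retinoic acid in each comparison that involves it. Signal over background limits Eln and the retinoic acid value of Lum.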

Other observations

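Of 15 integrin and syndecan genes none was called in any comparison. Over all genes at or above the floor 0.613% to 1.05% were called per direction. At such shares a list this short can be without a call by its size alone. The list medians were -0.06 with retinoic acid, -0.07 without serum and -0.09 for retinoic acid against serum. Itga8, the integrin chain whose ligand nephronectin acts in ureteric bud outgrowth, stood between 10.16 and 10.28, and Itgb3, a partner of the av chain, was at 6.61 in serum and serum-free medium and at 7.60 with retinoic acid, just short of 2-fold. Of 16 basement membrane genes none was called either, with the same limit, and the medians were 0.03, 0 and 0.01. Hspg2, which encodes perlecan, was highest with retinoic acid at 9.43 against 8.77 without it.

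Matrix proteases and their inhibitors had medians of 0.22 with retinoic acid, -0.07 without serum and 0.16 for retinoic acid against serum over 13 measured genes. Mmp2, which encodes a gelatinase, stood at 11.72 with serum, 11.15 without it and 11.88 under retinoic acid. Adamts5, which encodes an aggrecanase, was the 1 called gene of the list, lower with retinoic acid than in serum (-1.10). Timp3, which encodes an inhibitor held in the matrix, was 10.63, 10.56 and 9.99. A probe set annotated to both Loxl2, a Lox relative, and Gm21451 stood at 9.10, 8.12 and 8.65, a difference of -0.98 without serum, and was kept out of the counts because it carries 2 symbols.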
